A study of Homo sapiens with 66 samples.

Results

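KASUMI-1 is an established human acute myeloid leukemia (AML) cell line in which a translocation joins RUNX1 to RUNX1T1. The results concern its response to etoposide, and its 6 libraries were taken by their cell line label from the 66 libraries of the series, which cover 11 AML cell lines. In 3 libraries the cells had received medium alone (untreated), and in 3 they had been exposed for 24 h to etoposide at the IC50 concentration of the line. Both groups share the same line and the same overnight culture before treatment. The design text calls the 3 libraries of a group biological replicates, and each was made from the pooled cells of several wells. The line descends from a single leukemia, so the 6 libraries describe that one line and not the disease.

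Etoposide traps topoisomerase II on cleaved DNA, so that breaks persist where the enzyme works. Cells answer such breaks through checkpoint kinases and p53, which halt the cycle, start repair or start apoptosis. The RUNX1-RUNX1T1 fusion protein represses many RUNX1 target genes and holds myeloid progenitors short of differentiation. Gene counts do not separate the fusion transcript from transcripts of the intact RUNX1 or RUNX1T1 gene.

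The libraries held 19409082 to 21121569 reads on genes. Transcripts of the mitochondrial genome took 6.27% to 6.43% of the reads in untreated and 7.11% to 7.34% in etoposide-treated libraries, and the part of this shift in the results was not tested. A count of 0 over the 3 libraries of a group allows a level of up to 0.0526 CPM (a gene's reads scaled to a fixed library size after TMM normalization) in untreated and 0.0457 CPM in treated cells, that of 3 reads, for counting error only. Replicates differed beyond sampling noise. Untreated replicate 3 and etoposide replicate 2 stood apart from their groups: the chi-square per degree of freedom was 13.9 and 21.6 between the former and the other untreated libraries against 4.32 between those, and 24.1 and 35.1 between the latter and the other treated libraries against 6.56. Where a named gene lost its call without both libraries, the value is given. Some list counts and medians also moved without both libraries, and not all of these are given. Progenitor markers were present. Among CD34, KIT, MPO, SPI1, CEBPA, RUNX1T1 and POU4F1 the lowest mean level in untreated cells was 18.5 CPM, for CEBPA. Markers of other cell types were absent only in part. Their untreated means were 57.5 CPM for LYZ, 17.9 CPM for CD79B and 16.2 CPM for PAX5, with CSF1R between LYZ and CD79B. KLF1 and ITGA2B were lower, at 2.12 and 2.06 CPM. The hemoglobin genes HBB and HBG1 and the platelet factor gene PF4 had 0 reads in the 6 libraries.

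Etoposide changed a large share of the KASUMI-1 transcriptome, and inductions were more numerous and larger than repressions. Among 14286 genes tested, 2084 rose and 932 fell by more than 2-fold at a false discovery rate (FDR) below 0.05 (quasi-likelihood test in edgeR, Benjamini-Hochberg adjustment). These are 21.1% of the genes tested, with 14.6% higher and 6.52% lower, and 69.1% of the called genes were higher. With scaling by library size alone, 2545 genes were higher and 594 lower, 81.1% higher, and the median over all genes moved from 0.03 to 0.20 on the log2 scale. More than 8-fold differences were seen for 362 induced genes and 1 repressed gene. Induced genes had started low, with a median of 0.931 CPM in untreated cells, whereas repressed genes had a median of 38.2 CPM and all genes tested one of 21.2 CPM. Of the induced genes, 632 had fewer than 10 reads in each untreated library. They passed the filter on low counts only through the treated libraries, so for them a call was nearly bound to be higher (632 of 665 such genes). Without untreated replicate 3 and etoposide replicate 2 the counts were 2167 higher and 1012 lower, an alternative added after the data had been seen.

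**Figure D1:**
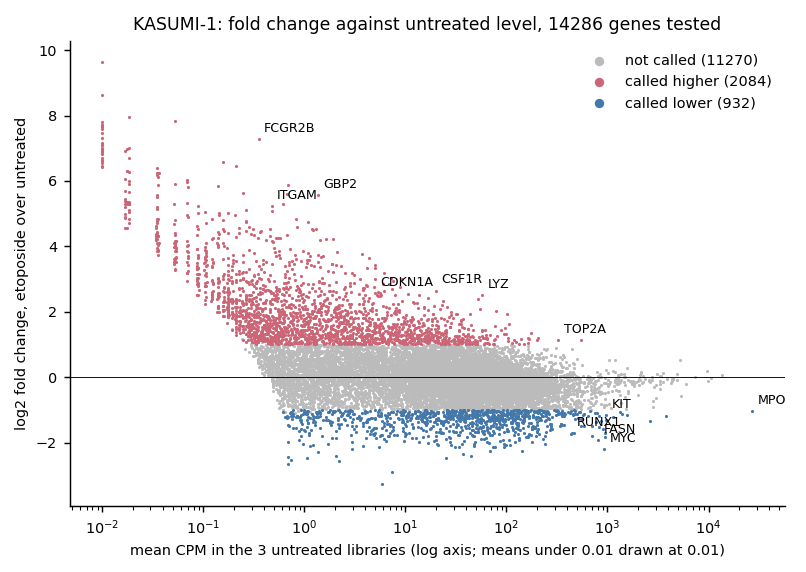
Log2 fold change (etoposide over untreated, vertical axis) against the mean CPM of the 3 untreated libraries (horizontal log axis) for 14286 genes, with 2084 called higher in red, 932 called lower in blue and the rest in gray. The red cloud widens to the left, where untreated levels are low, and the blue points lie mostly above 1 CPM.

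More genes were detected in treated cells. After each library had been thinned to 19409082 reads, 19601 to 19745 genes had a read in untreated and 24675 to 25042 in treated libraries. Protein-coding genes accounted for 13130 to 13170 and 15784 to 15853 of them, and long noncoding RNA genes for 3236 to 3356 and 4868 to 4955. No untreated library reached any treated library in the 3 classes. Of 19629 coding genes in the files, 5698 had 0 reads in untreated cells, and 3302 of these had at least 1 read after etoposide. Only 535 of them reached 10 reads over the 3 treated libraries and 2 reached 100, so the newly detected coding genes together took 0.0308% of the treated reads. In the opposite direction, 68 coding genes with a read in untreated cells had none after etoposide, and 0 of them had held 10 reads or more.

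**Figure D2:**
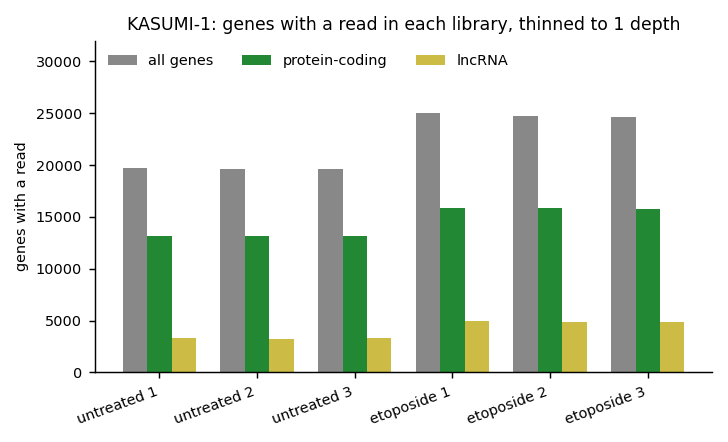
Number of genes with at least 1 read in each library after thinning to 19409082 reads, for all genes (gray), protein-coding genes (green) and long noncoding RNA genes (yellow), with 1 bar per library and class. Treated bars exceed every untreated bar of their class.

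The coding genes that went from no read to the most reads were ABI3, YPEL4 and IL21R. ABI3, an adaptor that binds actin regulators, went from 0 to 319 reads and was at least 92.3-fold higher. Its levels after etoposide were 4.11, 5.62 and 4.92 CPM. YPEL4, of the yippee-like family, had 157 reads after etoposide and was at least 45.4-fold higher, and IL21R, a cytokine receptor, had 84 and was at least 24.3-fold higher. All 3 genes stayed below 6 CPM in treated cells. These 3 names were chosen after the values had been seen.

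The drug's target genes differed from each other. TOP2A, the topoisomerase II of dividing cells, stood at 347, 371 and 256 CPM in untreated and 732, 541 and 847 CPM in treated libraries. The groups did not overlap, and the lowest value of each group came from a library that stood apart. TOP2A rose by 1.12 ± 0.18 on the log2 scale (SE, n = 3 per group, edgeR adjusted p = 0.000403). The call was lost without untreated replicate 3 or without etoposide replicate 3, and without both libraries that stood apart the value was 1.13 (adjusted p = 4.96e-09). TOP2B, the isoform also found in nondividing cells, was at 287, 299 and 211 CPM against 294, 222 and 307 CPM, so its groups overlapped, with a log2 fold change of 0.05 ± 0.15 (edgeR adjusted p = 0.808). Among 11 topoisomerases and tyrosyl-DNA phosphodiesterases tested, TOP2A was the only one called.

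RUNX1, RUNX1T1 and KIT, which mark the line, fell. RUNX1, the 5′ partner of the fusion, went from 452, 432 and 440 CPM to 146, 123 and 137 CPM. RUNX1T1, the 3′ partner, went from 260, 249 and 237 CPM to 83.5, 68.3 and 81.5 CPM. The groups of both genes lay far apart, and their log2 fold changes were nearly equal, at -1.71 ± 0.08 for RUNX1 (edgeR adjusted p = 5.27e-07) and -1.68 ± 0.09 for RUNX1T1 (edgeR adjusted p = 9.49e-07). In bulk RNA, fewer cells with a transcript and less of it per cell cannot be told apart. KIT, the stem cell factor receptor, fell from 1052, 980 and 861 CPM to 478, 384 and 438 CPM (log2 fold change -1.15 ± 0.11), a call that was lost when libraries were scaled by size alone. CD34, the progenitor surface antigen, was at 590, 582 and 601 CPM against 435, 437 and 435 CPM and did not reach 2-fold, with a log2 fold change of -0.44 ± 0.07.

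Of 7 tested genes known to be highly expressed in RUNX1-RUNX1T1 leukemia, 4 fell and 0 rose, with a median log2 fold change of -1.17 against 0.03 for all genes tested. Besides RUNX1T1 they were UBASH3B (-1.60), a phosphatase-like regulator of receptor signaling, BAALC (-1.41) and TRH (-1.17). POU4F1 and PAX5, lineage transcription factors typical of this leukemia, were at -0.17 and -0.20 and were not called. Among 15 stem and progenitor genes tested 4 were lower and 2 higher. Over all genes tested 6.52% were lower and 14.6% higher, so the share of this list that rose was near the general one. The hematopoietic transcription factors TAL1 (-1.70) and ERG (-1.31) fell with BAALC and KIT, whereas SPINK2 (2.29) was among those that rose. SPINK2 had fewer than 10 reads in each untreated library and passed the filter only through the treated ones. Among 14 myeloid transcription factors, RUNX1 and ZEB2 fell, IRF4 and BCL6 rose, and SPI1 (0.18) and CEBPA (0.49) were not called. The share that rose was near that over all genes, and 1 of the 2 had fewer than 10 reads in each untreated library.

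Monocyte and macrophage genes rose steeply. Of 24 listed genes 14 could be tested, and 12 of these rose while 0 fell, with a median log2 fold change of 3.23. ITGAM, the alpha chain of the CD11b integrin of mature myeloid cells, went from 0.457, 0.42 and 0.548 CPM to 18.7, 16.9 and 18.9 CPM, a log2 fold change of 5.24 ± 0.17. LYZ, the lysozyme of granules, went from 56, 59.5 and 56.9 CPM to 330, 345 and 303 CPM. CSF1R, the receptor for macrophage colony-stimulating factor, went from 17.9, 21.1 and 21 CPM to 124, 125 and 127 CPM. The groups of these 3 genes did not overlap, and even the steepest rise left the CPM of ITGAM far below that of LYZ. S100A9, a calcium-binding protein of phagocytes, rose by 4.75 ± 0.17 on the log2 scale and the Fc receptor FCGR2A by 3.02 ± 0.10, although FCGR2A shares near-identical sequence with FCGR2B and FCGR2C, so reads may be split among them. SIGLEC1, a macrophage adhesion receptor, went from 1 to 201 reads, a ratio of 174 with a 95% counting interval of 30.9 to 6922. Of the 12 induced genes, 4 had fewer than 10 reads in each untreated library.

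The defining monocyte markers did not follow in full. CD14, the endotoxin coreceptor, went from 3 to 35 reads over 3 libraries, and the scavenger receptor CD163 from 0 to 20. Neither was tested because of low counts. Granule genes went both ways. The azurophil enzymes MPO and PRTN3 fell (-1.04 ± 0.09 and -1.33 ± 0.14 on the log2 scale), MPO from 25346, 27278 and 28720 CPM to 12431, 13970.3 and 13033 CPM. The call of MPO was lost with scaling by library size alone, with a mean of at least 5 CPM, in the fit of 60 libraries and without untreated replicate 3. By contrast CEBPE, a transcription factor of late granulocytes, rose by 1.43, BPI by 2.22 and MS4A3 by 1.61. The later granule gene CAMP went from 0 to 46 reads. ELANE (-0.54), CTSG (-0.56) and AZU1 (-0.04) were not called.

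Some marker genes of other blood lineages also rose, mostly from low levels. Summed over the whole list, the 11 megakaryocyte genes were at 5.89 to 7.30 CPM in untreated and 33.3 to 45.9 CPM in treated libraries, with 4 of 4 tested genes higher, among them SELP, NFE2 and ITGA2B, and PF4 at 0 reads. The 8 mast cell and basophil genes were at 1.31 to 1.57 CPM against 13.2 to 15 CPM, with 2 of 3 tested higher. One of them was HDC, which makes histamine, at 0.152, 0.0525 and 0 CPM untreated and 4.68, 4.72 and 4.97 CPM treated. The 12 lymphoid genes were at 29.9 to 32.8 CPM against 71.7 to 90.1 CPM, with 4 of 6 tested higher, among them NKG7, a granule protein of killer cells, which rose by 3.74 ± 0.19 on the log2 scale. The B cell receptor chain gene CD79B was at -0.45 and was not called, and CD3D, a T cell receptor chain, went from 8 reads to 0. The 14 erythroid genes were at 13.5 to 16.4 CPM against 25.1 to 35.6 CPM, and most of this sum was the erythropoietin receptor EPOR, which rose from a mean of 12.2 to one of 28.1 CPM. The other tested gene, the erythroid transcription factor KLF1, was at -0.78 and was not called. In the megakaryocyte, mast cell and lymphoid lists, 1 induced gene each passed the filter on low counts only through the treated libraries. They were SELP, HDC and CD2, with 5, 4 and 1 reads over the untreated libraries. Over all genes tested 14.6% were higher. The part of these lists in the other results was not tested.

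Interferon-stimulated genes rose almost as a block. Of 29 tested members of 30, 27 rose and 0 fell, with a median log2 fold change of 1.70, which was the same with IFI44L at its lower bound. OAS3, which makes 2′-5′ oligoadenylates on double-stranded RNA, went from 0.711, 0.893 and 0.932 CPM to 22.2, 20.3 and 18.5 CPM, a log2 fold change of 4.58 ± 0.16 (edgeR adjusted p = 1.29e-07). IFI44L went from 0 to 80 reads and was at least 23.1-fold higher. IFIH1, a cytosolic sensor of double-stranded RNA, went from 4.88, 5.94 and 4.06 CPM to 15.1, 12.9 and 14.6 CPM. Treated values lay above untreated ones in all 3 genes. DTX3L (0.69) was among the tested members not called, whereas the transcription factors STAT2 (1.03), IRF9 (1.29) and IRF7 (3.55) rose. Summed, the list stood at 243 to 270 CPM untreated and 591 to 655 CPM treated, and 5 of the 27 induced members had fewer than 10 reads in each untreated library.

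The promoters of 3 induced members are shown because they hold the interferon-stimulated response element, searched on both strands as GAAA, any 2 bases and GAAA. The windows are RefSeq sequence of GRCh38.p14, from 250 bases before to 50 bases after the annotated start, 5′ to 3′ on the gene's strand, with each match in capitals. The element is in 3.57% of 35116 such windows. No share is given for the list or for induced genes, because windows existed for 22 of the 29 members and for 76.3% of the induced coding genes. A match is a run of letters and not a measured binding site.
IFI44L, chr1:78620198-78620497, plus strand: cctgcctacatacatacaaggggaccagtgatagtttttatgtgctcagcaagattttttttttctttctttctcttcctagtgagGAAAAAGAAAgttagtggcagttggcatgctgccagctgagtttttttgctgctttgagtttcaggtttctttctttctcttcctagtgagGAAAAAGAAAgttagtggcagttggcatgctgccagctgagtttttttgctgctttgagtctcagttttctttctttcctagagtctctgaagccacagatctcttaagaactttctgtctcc
OAS3, chr12:112938224-112938523, plus strand: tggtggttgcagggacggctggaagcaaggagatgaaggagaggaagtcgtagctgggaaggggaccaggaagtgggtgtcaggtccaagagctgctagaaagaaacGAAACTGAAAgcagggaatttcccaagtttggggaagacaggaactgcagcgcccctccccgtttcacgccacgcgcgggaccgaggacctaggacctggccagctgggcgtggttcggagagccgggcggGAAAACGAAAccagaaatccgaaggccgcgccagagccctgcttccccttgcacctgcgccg
IFIH1, chr2:162318635-162318934, minus strand: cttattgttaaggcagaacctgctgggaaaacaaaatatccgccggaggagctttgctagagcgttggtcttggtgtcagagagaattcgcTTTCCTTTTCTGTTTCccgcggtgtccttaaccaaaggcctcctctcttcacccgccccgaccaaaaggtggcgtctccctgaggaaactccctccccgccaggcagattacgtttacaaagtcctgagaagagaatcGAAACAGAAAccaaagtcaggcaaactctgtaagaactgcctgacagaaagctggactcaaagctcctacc

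NF-kB target genes rose as well. Of 17 tested members of 20, 11 rose and 0 fell, with a median log2 fold change of 1.73. Of the 11, 1 had fewer than 10 reads in each untreated library. NFKBIA, the inhibitor that NF-kB itself induces, went from 33, 33.5 and 39.6 CPM to 110, 132 and 117 CPM, so that every treated library held well above the highest untreated one. TNFAIP3, a ubiquitin-editing brake on the same pathway, went from 17, 19.6 and 18.6 CPM to 64.7, 59.1 and 59.4 CPM. The subunit genes NFKB2 (1.99) and RELB (1.75) rose, and NFKB1 (-0.31) and REL (0.38) were not called. Of 26 chemokine and cytokine genes only 11 had enough reads, and 8 of these rose, with the largest fitted changes in CXCL16, IL32 and CSF1, from at most 0.164 CPM. These 3 had fewer than 10 reads in each untreated library and passed the filter only through the treated ones. CXCL8, the neutrophil chemokine, went from 5.13, 7.36 and 5.59 CPM to 44.2, 55.4 and 30.6 CPM. The cytosolic DNA sensor CGAS (0.02) and its adaptor STING1 (0.87) were not called, and in their list of 7 only SAMHD1 rose, by 1.00 ± 0.09 on the log2 scale, at the edge of the fold threshold, and by 0.96 and thus not called without the libraries that stood apart. Of 10 MHC class I genes 4 rose, with HLA-B at 1.13 and TAP1 at 1.00, and of 8 class II genes only HLA-DMA did. Of the 4 class I genes, 1 had fewer than 10 reads in each untreated library. Over all genes tested 14.6% were higher, and the shares in the DNA-sensing and class II lists were near this.

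**Figure D3:**
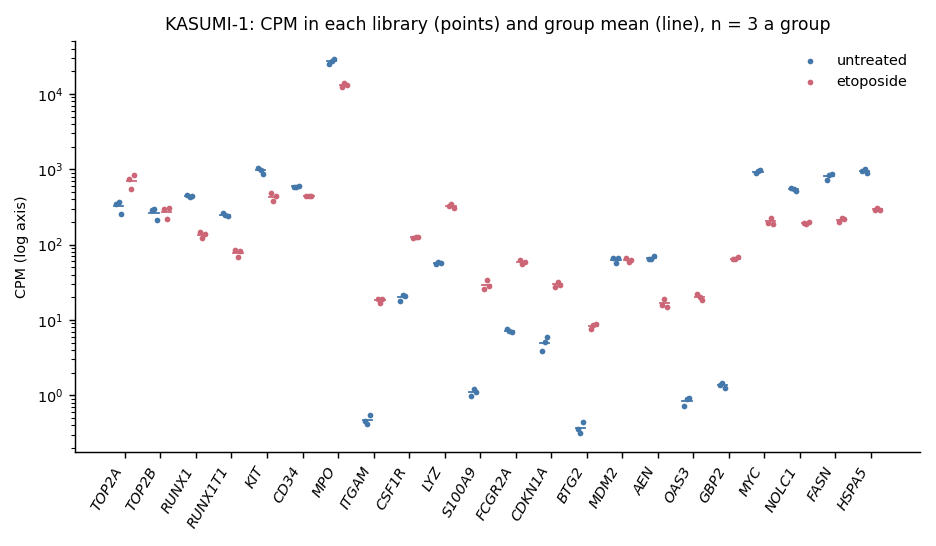
CPM on a log axis for selected genes in each of the 6 libraries (blue points untreated, red points etoposide, horizontal lines group means, n = 3 per group). RUNX1, RUNX1T1 and MYC fall, ITGAM and OAS3 rise, and the points of TOP2B and MDM2 overlap between the groups.

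p53 targets changed in part. Of 24 tested p53 targets 8 rose and 1 fell, with a median log2 fold change of 0.48, and 2 of the 8 had fewer than 10 reads in each untreated library. Over all genes tested 14.6% rose and 6.52% fell, with a median of 0.03. CDKN1A, the p21 inhibitor of cyclin-dependent kinases, went from 3.86, 5.1 and 6.03 CPM to 27.1, 32.3 and 29.2 CPM, a 5.92-fold rise (edgeR adjusted p = 1.28e-06). BTG2, an antiproliferative gene, went from 0.356, 0.315 and 0.438 CPM to 7.61, 8.58 and 8.88 CPM. MDM2, the ubiquitin ligase that p53 induces against itself, was at 66.2, 56.8 and 66.3 CPM against 65.4, 58.8 and 62.9 CPM. Its groups overlapped, and its log2 fold change was -0.02 ± 0.09 (edgeR adjusted p = 0.895). GADD45A, a stress gene of the same pathway, was at 19.9, 20.2 and 20.8 CPM against 16.1, 17.7 and 16.5 CPM and did not reach 2-fold. AEN, an exonuclease gene induced by p53 in other settings, fell from 65.4, 64.8 and 70.6 CPM to 15.9, 18.8 and 15 CPM, a log2 fold change of -2.01 ± 0.11.

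Among genes of apoptosis, 3 of 15 tested BCL2 relatives rose and 0 fell, where 14.6% of all genes tested rose. BMF, a BH3-only activator of apoptosis, went from 16.4, 15.8 and 18.1 CPM to 81.8, 95.8 and 90.2 CPM, and BBC3, the p53 target PUMA, rose by 1.34 ± 0.29 on the log2 scale, or was at 0.93 and not called without the libraries that stood apart. BCL2A1, an antiapoptotic member, rose by 3.91 ± 0.46 but reached only 1.33 to 1.44 CPM. It had fewer than 10 reads in each untreated library and passed the filter only through the treated ones. MCL1 (0.04), BAX (-0.13) and BCL2 (-0.97) were not called. Death receptors and inhibitors of apoptosis gave 6 higher and 0 lower of 14, of which 2 had fewer than 10 reads in each untreated library, with the receptor FAS (2.24 ± 0.32) and the ligand TNFSF10 (2.85 ± 0.19) among them. BIRC3, an inhibitor of apoptosis and NF-kB target, went from 2 to 123 reads, a ratio of 53.4 with a 95% counting interval of 14.5 to 446.

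Most cell cycle genes did not reach 2-fold. Of 33 genes of the G1/S transition and replication 8 rose and 0 fell (median log2 fold change 0.47). CCNE2, a cyclin of S phase entry, went from 27, 24.3 and 19.7 CPM to 123, 106 and 128 CPM, and the repressor E2F8 rose by 2.09 ± 0.11 on the log2 scale. RRM2, the small subunit of ribonucleotide reductase, went from 203, 202 and 202 CPM to 447, 453 and 444 CPM. The MCM2 to MCM7 helicase genes lay between -0.19 and 0.02. Of 30 G2/M genes 4 rose and 1 fell (median 0.48), no larger a share than the 14.6% and 6.52% over all genes. Without the libraries that stood apart the counts were the same and the median was 0.45. MKI67, the proliferation antigen, went from 598, 598 and 444 CPM to 1292, 797 and 1511 CPM, with the lowest value of each group again in a library that stood apart, and its log2 fold change was 1.13 ± 0.21, or 1.22 without those libraries. Without etoposide replicate 3 alone the call of MKI67 was lost. CDC20, the activator of the anaphase-promoting complex, fell by 1.01 on the log2 scale, a call lost when libraries were scaled by size alone and when any of untreated replicate 3, etoposide replicate 1 or etoposide replicate 3 was left out. CCNB1 (-0.16) and PLK1 (-0.20) were not called. Of 5 CDK inhibitors CDKN1A and CDKN2D (2.21 ± 0.21) rose.

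Of 28 homologous recombination and Fanconi anemia genes 5 rose and 0 fell (median 0.47), a share near the 14.6% higher over all genes. They were RAD51AP1 (1.58 ± 0.15), BRCA2 (1.40 ± 0.23), BRCA1 (1.18 ± 0.17), FANCI (1.17 ± 0.15) and EXO1 (1.00). BRCA1 was at 69.8, 73.2 and 49.8 CPM against 163, 113 and 162 CPM, and BRCA2 at 21.8, 23.2 and 15.9 CPM against 61.3, 34.7 and 64.3 CPM. Both genes had their lowest value of each group in the libraries that stood apart, and without these the log2 fold changes were 1.18 and 1.47. Among 14 end-joining genes APLF rose (1.77 ± 0.17) and PRKDC, the catalytic subunit of the DNA-dependent protein kinase, fell from 1351, 1188 and 898 CPM to 588, 372 and 531 CPM. None of the 14 checkpoint genes tested was called in edgeR, although TIMELESS, a replication fork protein, was at 212, 213 and 214 CPM against 319, 315 and 318 CPM, and 9 of the 14 had an unadjusted p below 0.05.

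MYC and the nucleolar genes fell as a group, as did genes of lipid synthesis. MYC went from 889, 943 and 969 CPM to 196, 225 and 189 CPM, a 4.59-fold fall (edgeR adjusted p = 2.46e-07) with groups far apart. Of 32 MYC network and nucleolar genes 14 fell and 1 rose, with a median log2 fold change of -0.91. NOLC1, a nucleolar scaffold, went from 565, 548 and 522 CPM to 196, 188 and 200 CPM. PES1, a factor of large ribosomal subunit assembly, went from 158, 164 and 184 CPM to 58.6, 73.9 and 59.3 CPM. WDR43, a factor of small subunit assembly, went from 145, 149 and 115 CPM to 58.4, 53.1 and 57.9 CPM. In each case the highest treated value was far under the lowest untreated one. NOP16 (-2.12 ± 0.15), RRS1 (-2.41 ± 0.11) and the RNA polymerase I subunit POLR1A (-1.89) fell further, and MXD3, a member of the MAX-binding repressor family, rose by 2.16 ± 0.19. The 24 ribosomal protein genes gave 0 calls in either direction in edgeR, with log2 fold changes of -0.38 to 0.14 and 2 of them at an unadjusted p below 0.05. The 13 mitochondrially encoded messenger RNAs gave 0 calls too, with 5 at an unadjusted p below 0.05, among them MT-ND6 at -0.72.

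The E-box CACGTG, the palindromic site that MYC and MAX recognize, stood in 19.1% of the promoter windows of repressed coding genes (122 of 640) against 10.5% of those of all coding genes tested (1018 of 9722) and 7.26% of all 35116 windows. In the 250 bases before the start alone the shares were 12.3%, 9.24% and 6.34%, so the distance between repressed and tested genes was smaller without the 50 bases after it. The window was present for 81.4% of repressed coding genes. The CRE element TGACGTCA, for comparison, was in 4.69% of repressed and 3.27% of tested genes, and the ETS element CCGGAAG in 18.4% and 19.9%. Of the 14 repressed MYC network and nucleolar genes, 9 had a window, and 2 of these held an E-box, PES1 and WDR43. Over all 25 members of that list with a window, 6 held one. PES1 and WDR43 are shown because their E-box lies in those first transcribed bases, printed as above with the E-box in capitals.
PES1, chr22:30591861-30592160, minus strand: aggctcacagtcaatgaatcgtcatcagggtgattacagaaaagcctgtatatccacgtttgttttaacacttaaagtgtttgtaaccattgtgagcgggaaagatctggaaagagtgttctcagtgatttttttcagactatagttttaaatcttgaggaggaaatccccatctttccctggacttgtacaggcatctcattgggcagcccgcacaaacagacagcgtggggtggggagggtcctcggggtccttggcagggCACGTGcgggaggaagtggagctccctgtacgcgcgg
WDR43, chr2:28894417-28894716, plus strand: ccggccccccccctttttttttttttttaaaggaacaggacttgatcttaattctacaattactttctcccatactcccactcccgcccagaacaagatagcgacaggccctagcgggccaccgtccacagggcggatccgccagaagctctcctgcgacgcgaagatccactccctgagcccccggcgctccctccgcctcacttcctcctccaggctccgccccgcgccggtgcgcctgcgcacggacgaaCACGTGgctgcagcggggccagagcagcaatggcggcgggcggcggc

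Of 22 tested genes of sterol and fatty acid synthesis 12 fell and 0 rose (median log2 fold change -1.04). FASN, the fatty acid synthase, went from 731, 847 and 854 CPM to 200, 222 and 216 CPM, a 3.81-fold fall. SCD, the desaturase that makes oleate, went from 939, 940 and 982 CPM to 285, 248 and 273 CPM, and ACACA, which makes malonyl-CoA, fell by 2.03 ± 0.14 on the log2 scale. The groups were again separate, and the sterol enzymes DHCR7 (-1.54), CYP51A1 (-1.36), LSS (-1.30) and SQLE (-1.21) fell with them. SREBF2 (-0.76), a transcription factor that drives sterol synthesis, was not called.

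The ATF4 and unfolded protein response list gave 8 lower and 1 higher of 20 (median -0.54). HSPA5, the main chaperone of the endoplasmic reticulum, went from 952, 1009 and 902 CPM to 292, 302 and 286 CPM, a 3.26-fold fall. ASNS (-1.16 ± 0.09), PSAT1 (-1.39), SLC7A11 (-1.48 ± 0.21) and CHAC1 (-1.03), targets of ATF4, also fell, whereas PPP1R15A, the phosphatase subunit that reverses the response, rose by 1.34 ± 0.11. Among 15 heat shock and oxidative stress genes HMOX1, heme oxygenase, rose from 0.356, 0.158 and 0.11 CPM to 6.73, 7.15 and 6.35 CPM. HMOX1 was the only gene of this list that rose. It had 12 reads over the untreated libraries and passed the filter on low counts only through the treated ones. In the same list HSPE1 fell with SLC7A11. AP-1 and early genes went both ways, with JUN (2.11 ± 0.15), KLF2 and ATF3 higher and FOSL1 (-1.77 ± 0.20), DUSP4 and BATF lower among 22. Over all genes tested 14.6% were higher and 6.52% lower.

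The other lists gave the following counts, several of them near the shares over all genes tested, 14.6% higher and 6.52% lower. Autophagy and lysosome genes gave 4 higher of 22, with GABARAPL1 at 2.47 and SQSTM1 at 1.32 on the log2 scale. ABC transporters gave 2 higher (ABCG1 and ABCA7) and 1 lower (ABCC4, -1.32 ± 0.12) of 11, and the efflux pump gene ABCB1 was at 0.16. Histone genes gave 2 higher, 1 of them with fewer than 10 reads in each untreated library, and 2 lower of 17. MACROH2A1, a variant histone, fell from 1384, 1322 and 1321 CPM to 668, 622 and 633 CPM. This call was lost with scaling by library size alone and with a mean of at least 5 CPM. Deacetylases gave 2 higher of 18, HDAC5 (1.83 ± 0.12) and HDAC11 (1.38 ± 0.25). Integrins gave 4 higher, 1 of them with fewer than 10 reads in each untreated library, and 1 lower of 13. ITGAL, the alpha chain of LFA-1, rose from 2.29, 1.94 and 2.14 CPM to 32.7, 28.1 and 29.7 CPM.

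The strongest inductions among coding genes whose mean reached 5 CPM and whose groups did not overlap were led by receptors and innate immune genes. ADGRG5, an adhesion G protein-coupled receptor, went from 3 to 885 reads, a ratio of 256 with a 95% counting interval of 87.3 to 1243. FCGR2B, the inhibitory Fc receptor, went from 0.254, 0.315 and 0.493 CPM to 54.1, 56.8 and 55.3 CPM, a log2 fold change of 7.28 ± 0.16, with the reservation given for FCGR2A. GBP2, an interferon-inducible GTPase, went from 1.37, 1.47 and 1.26 CPM to 64, 64.3 and 67.7 CPM. The rule took the largest rises without overlap, so the separation of the groups followed from the choice of genes. The short-chain fatty acid receptor FFAR2 (6.58), CHI3L1 (6.45), the autophagy receptor OPTN (5.86), the SRC family kinase FGR (5.62), complement C3 (5.61) and GPX3 (5.31) made up the rest of the 10 with ITGAM. ADGRG5, FCGR2B, FFAR2, CHI3L1 and FGR had fewer than 10 reads in each untreated library and passed the filter only through the treated ones.

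The strongest repressions by the same rule were smaller, between -2.48 and -2.12 on the log2 scale. FJX1 went from 23.1, 24.1 and 27.8 CPM to 4.02, 5.1 and 4.28 CPM. STC2, a secreted stanniocalcin, went from 70.7, 66.1 and 69.6 CPM to 15.6, 12.8 and 14.3 CPM. ADAM12, a metalloprotease, went from 150, 135 and 146 CPM to 32, 24 and 33.6 CPM. The rule required groups without overlap, so the separation of the groups followed from the choice of genes. MYC, RRS1, DDN, the natriuretic peptide receptor NPR3, the TIE2 ligand ANGPT1, the nucleolar gene CCDC86 and NOP16 completed the set.

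Coding genes of the longest span were called lower more often than shorter ones. Among coding genes with at least 5 CPM in untreated cells, those that span over 100 kb had a median log2 fold change of -0.28, with 12.1% lower and 2.23% higher of 1750, and the median was -0.28 without the libraries that stood apart as well. Shorter genes, in bins up to 10 kb, 10 to 30 kb and 30 to 100 kb, had 4.95% to 8.88% lower and 5.10% to 6.56% higher. The medians of these bins were -0.16, -0.05 and -0.04. Without the minimum of 5 CPM, genes over 100 kb had a median of -0.17, with 10.0% lower and 11.9% higher of 2221. Shorter genes then had 4.42% to 8.23% lower and 13.5% to 14.9% higher. Among 1475 long noncoding RNA genes 339 rose and 82 fell. Genes are not independent replicates, so these shares carry no test.

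The response of KASUMI-1 was compared with the mean response of 9 other lines, all but OCI-AML2, whose treated libraries the authors discarded. Each line had its own concentration. Among 13895 genes with a read in each of the 20 groups, the difference was called higher for 1029 and lower for 352, 9.94% of those tested, with 7.41% higher and 2.53% lower, by edgeR at an FDR below 0.05 and a difference above 1 on the log2 scale. The mean of the lines is not every line, so the ranges are given beside the largest differences among called coding genes with a mean of 5 CPM or more in KASUMI-1. ADGRG5 responded by 7.85 in KASUMI-1 and by -0.14 to 1.70 in the other lines that tested it. TYROBP, an adaptor of activating myeloid receptors, responded by 5.07 against 0.54 to 1.70, and VSIR, an inhibitory receptor of leukocytes, by 4.52 against -0.09 to 1.16. In these 3 genes no other line reached KASUMI-1. FCGR2B, in contrast, responded by 6.74 in 1 other line and by as little as -1.87 in another, and OPTN reached 4.24 elsewhere.

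Part of the G2/M genes responded higher in KASUMI-1 than the mean of the other lines. The difference was called higher for 11 of 30 and lower for 0, with a median of 0.90. The largest were those of CENPE (1.70 ± 0.30), a kinesin of the kinetochore, MKI67 (1.54 ± 0.16), CENPF (1.53 ± 0.27) and TOP2A (1.48 ± 0.23, edgeR adjusted p = 7.30e-07). TOP2A responded by -1.03 to 0.05 in the 9 other lines. The median response of the list was 0.48 in KASUMI-1 and -1.15 to 0.07 in the others. Without untreated replicate 3 and etoposide replicate 2, the difference of MKI67 was 1.64 and that of TOP2A was still called (edgeR adjusted p = 1.80e-05).

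Monocyte and macrophage genes had a higher difference for 8 of 12 tested and a lower one for 0. ITGAM (3.39 ± 0.28), FCGR2A (2.48 ± 0.12), LYZ (1.72 ± 0.15) and CSF1R (1.48 ± 0.16) were among them. The list median of 3.23 in KASUMI-1 was exceeded by F-36P, at 3.56, and the 8 other lines lay at 0.08 to 1.89. For interferon-stimulated genes 8 of 27 were higher and 0 lower, and here both F-36P (3.17) and NB4 (1.81) had list medians above that of KASUMI-1.

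The ATF4 and unfolded protein response list went the opposite way, with the difference lower for 8 of 20 and higher for 0. SLC7A11, the cystine transporter, had a difference of -2.75 ± 0.27, CHAC1 one of -2.06 ± 0.23, TRIB3 one of -1.83 ± 0.19 and HSPA5 one of -1.43 ± 0.10. SLC7A11 responded by -1.48 in KASUMI-1 and by -0.17 to 4.36 in the other lines. Of 24 AP-1 and early genes 8 were lower and 1 higher, with DUSP4, a phosphatase that ends MAP kinase signaling, at -2.97 ± 0.16. RUNX1 had a difference of -1.31 (edgeR adjusted p = 8.45e-17), and other lines responded by -0.65 to 0.09. RUNX1T1, KIT and CD34 had no reads in at least 1 group of the other lines and could not be compared in this way.

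Of 22 p53 targets 2 were higher and 4 lower in the difference against 9 lines, with a median of -0.35. They were also compared with MOLM-13, MV-4-11 and OCI-AML3. Over all genes 13.6% of 15217 differed, 9.04% higher and 4.51% lower. Of 25 p53 targets 9 were lower and 1 was higher in KASUMI-1, with a median difference of -0.67 from the mean of these lines. The mean of the 3 lines is not each line. The median response of the list was 0.48 in KASUMI-1, 0.48 in MV-4-11, 1.12 in MOLM-13 and 1.88 in OCI-AML3. AEN (-2.40 ± 0.13), GADD45A (-2.05 ± 0.15), PLK3 (-1.88 ± 0.16) and MDM2 (-1.85 ± 0.12, edgeR adjusted p = 4.3e-19) had the lowest differences, and BTG2 the one that was higher (2.23 ± 0.42). CDKN1A, which rose in KASUMI-1, differed by -0.87 ± 0.20 on the log2 scale and was not called. The lines differ in many ways, and 1 line against 3 others cannot tell these apart.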

How the data were processed

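The authors mapped single-end reads of stranded mRNA libraries to GRCh38.p7 with STAR 2.5.3a, after FastQC 0.11.5, and compared groups in edgeR 3.20.1. They deposited raw counts of reads per gene for each library, not normalized. Of 58037 identifiers, 45 chromosome Y pseudoautosomal duplicates without reads were left out, and 56948 of the 57992 analysed had a name in gencode 44. Deposited tables of the authors' own comparisons were not used.

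From the counts, the 3 untreated and 3 etoposide libraries of KASUMI-1 (19409082 to 21121569 reads) were compared by edgeR 4.0.16 in R 4.3.3: filterByExpr (minimum count 10, minimum total 15), TMM, the quasi-likelihood test and Benjamini-Hochberg adjustment over all genes tested. A call required an FDR below 0.05 together with more than a 2-fold change. All CPM values are TMM-normalized. P-values measure the spread between these libraries. The differences between lines came from 1 fit of 60 libraries, with OCI-AML2 left out. Genes with no read in a group of the lines compared were left out of the differences and the FDR was recomputed, a step decided after the fits had been seen, because no finite response exists for them. The fits were tested on simulated data. Other steps used Python 3.11.15, NumPy 2.4.6, pandas 2.3.3, SciPy 1.17.1 and Matplotlib 3.10.9.

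Named genes were the drug targets and line identity genes, the 10 largest changes each way among coding genes whose mean reached 5 CPM and whose groups do not overlap, up to 3 called members of each list in each direction (or the one with the lowest p), and the 5 largest differences each way among called coding genes whose mean reached 5 CPM. Other list members named were chosen after their values had been seen. The part of the series described, the 37 gene lists (674 genes) and the tests were chosen with earlier results of these data known. Alternatives were other normalizations, filters and tests (DESeq2 1.42.0, edgeR's exact test), no fold minimum, the 60-library fit, the replicate number as a block, and libraries left out. Some list members are not reported here.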

Additional observations from a re-analysis of the deposited data

Results flagged for a closer look

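The response of KASUMI-1 was tested against the mean response of the 9 other lines, and the results below are those where the test of the difference itself passed. The difference was higher for 1029 genes and lower for 352. Among coding genes with a mean of 5 CPM or more in the KASUMI-1 libraries, the largest higher differences on the log2 scale were those of ADGRG5 (7.35), FCGR2B (6.22), OPTN (4.30), the adaptor TYROBP (3.94) and the receptor VSIR (3.90). The largest lower ones were those of DUSP4 (-2.97), the formyl peptide receptor FPR2 (-2.85), the netrin gene NTN1 (-2.79), SLC12A8 (-2.74) and STC2 (-2.63).

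These lower differences came from unlike patterns within KASUMI-1. FPR2 was at 4.11, 4.62 and 4.49 CPM in untreated and 5.51, 5.81 and 5.75 CPM in treated libraries, a log2 fold change of 0.37 that was not called, whereas the lines that tested it responded by 1.86 to 5.11. NTN1 went from 22.5, 24.9 and 28.1 CPM to 11.3, 10.9 and 10.1 CPM (-1.22 on the log2 scale), and responses elsewhere ran from -2.09 to 4.24. SLC12A8 went from 7.72, 8.14 and 7.45 CPM to 2.27, 2.10 and 2.53 CPM (-1.75), against -1.25 to 3.84. DUSP4 fell by 1.11 on the log2 scale in KASUMI-1 and responded by 0.65 to 3.36 elsewhere. STC2 had a log2 fold change of -2.27, and at least 1 other line had a lower one (-2.67). Thus only FPR2, SLC12A8 and DUSP4 responded lower in KASUMI-1 than in each other line that tested them.

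Against the mean response of MOLM-13, MV-4-11 and OCI-AML3, the difference passed for 10 p53 targets. It was higher for BTG2 (2.23) and lower for AEN (-2.40), GADD45A (-2.05), PLK3 (-1.88), MDM2 (-1.85), FDXR (-1.43), ZMAT3 (-1.34), TP53I3 (-1.18), SESN2 (-1.13) and TIGAR (-1.02), all on the log2 scale.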

How the results depend on the processing

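No gene called in one direction within KASUMI-1 was called in the opposite direction in any setting that was run. The number of calls moved with the filter and the fold minimum. Where a count moved and the setting's own construction does not show why, the cause was not tested. Against 2084 higher and 932 lower genes (69.1% higher), scaling by library size alone gave 2545 and 594 (81.1%), no filter on low counts 3571 and 1167 (75.4%), a mean of at least 5 CPM 902 and 558 (61.8%), no fold minimum 4503 and 4087 (52.4%) and the fit of 60 libraries 3919 and 890 (81.5%). DESeq2 gave 2010 and 950, edgeR's exact test 2095 and 937 and RLE normalization 2043 and 963. Called members of the 37 lists were 191, and 402 without a fold minimum. In the difference against 9 lines, 1029 genes were higher and 352 lower. A mean of at least 5 CPM left 356 higher, and at least 10 reads in every group, chosen after seeing the data, left 588 and 221. BTG2, the only p53 target with a higher difference against 3 lines, was not among the genes tested at a mean of at least 5 CPM, which left 0.

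With each library left out in turn, there were 2097 to 2260 higher and 929 to 989 lower genes (68.6% to 70.8% higher), 190 to 201 called list members, 950 to 1021 higher and 334 to 386 lower differences against 9 lines, and 1 to 2 higher and 8 to 9 lower p53 targets against 3 lines. Without untreated replicate 3 and etoposide replicate 2, chosen after seeing the data, the counts were 2167 and 1012 (68.2%), 190 list members, and 922 and 344 differences. Same-numbered libraries did not deviate together (r = 0.41, -0.14 and -0.24 across 12804 genes), and the highest correlation was that of untreated replicate 3 with etoposide replicate 2 (r = 0.49), so the numbers do not pair them. With the replicate block there were 2082 higher and 939 lower genes, and 0 of 119 calls of named genes were lost.

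Named calls lost elsewhere were SAMHD1 (RLE, DESeq2, no filter), KIT and DUSP4 (library size alone), BATF, MACROH2A1 and ZEB2 (library size alone and a mean of at least 5 CPM), and CDC20 and MPO (both of these and the 60-library fit). With 1 library left out they were ZEB2 (untreated 1, etoposide 2), SAMHD1 (untreated 2, untreated 3, etoposide 1), TOP2A (untreated 3, etoposide 3), BATF and MPO (untreated 3), CDC20 (untreated 3, etoposide 1, etoposide 3), ATF3 (etoposide 1), HLA-B (etoposide 2) and MKI67 (etoposide 3). Among named genes, signs turned only for those that were not called. TOP2B ran from -0.0892 to 0.179 on the log2 scale with a library left out and was at -0.00630 without a filter. MDM2 ran from -0.102 to 0.0250 and was at 0.160 (library size alone), 0.0757 (mean of at least 5 CPM), 0.0315 (60-library fit) and 0.0543 (without the libraries that stood apart).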

Other observations

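Further gene families, which share some members with the lists above, were looked at after the values had been seen, so their counts are descriptions. Fc receptors and their signaling adaptors gave 8 higher, 2 of them with fewer than 10 reads in each untreated library, and 1 lower of 14 tested, against 14.6% higher and 6.52% lower over all genes. The adaptor TYROBP went from 0.457, 0.42 and 0.548 CPM to 14.5, 19.9 and 14.1 CPM, and FCER1G, the common gamma chain, from 2.03, 1.79 and 1.86 CPM to 18.4, 24.6 and 20 CPM. Both treated groups were clear of the untreated ones. Of 9 SRC family kinases and their regulators 4 rose, among them SRC (4 reads to at least 4.81 CPM in each treated library) and FGR, which had fewer than 10 reads in each untreated library and passed the filter only through the treated ones, while LYN was at -0.40 on the log2 scale and was not called. All 4 tested guanylate-binding proteins, 7 of 9 S100 proteins, 4 of 5 APOBEC3 cytidine deaminases, 3 of 8 annexins and 3 of 6 NADPH oxidase genes rose, and 0 of them fell. NCF1 among the last has near-identical copies, so its reads may be split. Among the guanylate-binding proteins and among the S100 proteins that rose, 1 each had fewer than 10 reads in each untreated library.

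Biosynthetic families lay on the opposite side. Nucleotide synthesis genes gave 0 higher and 6 lower of 17, with a median log2 fold change of -0.88 and PFAS (-2.08) and DHODH (-2.03) the lowest. Amino acid transporters gave 6 lower of 13 (median -0.94), led by SLC7A5 (-2.03), the leucine importer. Aminoacyl-tRNA synthetases gave 5 lower of 20, led by VARS1 (-1.76), and serine and one-carbon genes 3 lower of 10, led by MTHFD1L (-1.92). Among 9 genes of mitochondrial DNA maintenance 3 fell, namely the helicase TWNK (-1.97), the mitochondrial RNA polymerase POLRMT (-1.32) and TFB2M (-1.26), and MGME1 rose (1.09).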
